A study of Drosophila melanogaster with 3 samples.

Results

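The genes of chitin metabolism and cuticle pigmentation were examined for binding of tagged Pif1B to chromatin in whole pupae of Drosophila melanogaster. They were chosen by symbol, with earlier results of these data known. The set holds the protein-coding genes named Cht, Idgf or Cda with a digit, together with kkv, knk, serp, verm, Gfat1, Gfat2, mmy, reb, exp, ple, Ddc, e, y, b and t. This rule found 34 of the 13945 protein-coding genes on the chromosome arms. The flies were a transgenic line of the strain Pif1B-GFP, in which green fluorescent protein is fused to the C-terminal end of Pif1B (PFTAIRE-interacting factor 1B). The labels give the stage as pupa, the age as unknown and the sexes as pooled. The bound DNA was measured by ChIP-seq, the sequencing of DNA pulled down with sheared chromatin, with an antibody against the tag, in 1 group of 3 biological replicates that all carried the transgene. No other stage, genotype or untagged line was analysed here. Whole animals mix all tissues, so binding in the epidermis, which secretes cuticle, cannot be told apart from binding elsewhere. Peak lists hold no expression values, so the tissue was not checked against marker genes.

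The authors deposited a relaxed list of peaks and background for each replicate, with 29999, 29999 and 30000 regions, and 1 of 29999 regions for the pooled reads. Their reproducible list, thresholded on the irreproducible discovery rate (IDR), held 6410 peaks, which were the strongest pooled regions with a signal of 83.2 or more. Signal is the authors' own value in arbitrary units, and it ranks regions within a list. Depth is unknown, all lists were called against the same control, and coordinates are in the dm6 build. A region was counted for a gene when its summit lay in the gene or within 2 kb of either end.

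Chitin is a polymer of N-acetylglucosamine and gives the insect cuticle and the tracheal lining their strength. Cells make its building block through the hexosamine pathway, a synthase in the apical membrane spins the polymer, deacetylases and matrix proteins order it, and chitinases take it apart at each moult. During metamorphosis the pupa lays down the adult cuticle. That cuticle is coloured and hardened by dopamine and its conjugates, which are made from tyrosine.

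Sequences at the summits are shown first, since the peaks differ widely in base composition. Each is the plus strand of dm6 from 50 bp before to 50 bp after the summit, and the set holds peaks upstream of a chitinase, the chitin synthase and the dopamine enzyme, in an intron of a second chitinase and next to a hexosamine enzyme. The bases are those of the RefSeq release 6 assembly. Capitals mark matches to the motifs given further on.
Cht7, chr3L:3107122-3107222: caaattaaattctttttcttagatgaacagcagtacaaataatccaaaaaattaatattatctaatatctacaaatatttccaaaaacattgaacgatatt
kkv, chr3R:5393077-5393177: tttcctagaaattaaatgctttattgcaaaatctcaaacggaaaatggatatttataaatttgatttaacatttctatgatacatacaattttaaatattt
Ddc, chr2L:19120421-19120521: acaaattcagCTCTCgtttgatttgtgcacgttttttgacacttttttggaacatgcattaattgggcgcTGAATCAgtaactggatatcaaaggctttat
Cht6, chrX:10021934-10022034: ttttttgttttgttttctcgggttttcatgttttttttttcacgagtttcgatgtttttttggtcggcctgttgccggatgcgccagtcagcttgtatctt
Gfat2 (at a start of larp), chr3R:28335616-28335716: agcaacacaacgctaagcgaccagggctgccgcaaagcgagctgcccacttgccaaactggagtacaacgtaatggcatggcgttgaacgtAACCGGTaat

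Reproducible peaks lay in or near chitin genes of each step of the pathway and 1 of the 6 pigmentation genes. These groups hold only 3 to 10 genes each, and differences between them were not tested. In all, 17 of 34 genes (50%, 95% Clopper-Pearson interval 32.4 to 67.6) had an IDR summit in the gene or within 2 kb, against 29.8% of all protein-coding genes. These 17 genes shared 20 peaks. A further 15 genes had relaxed regions only, and b and Cht9 had none, so that 32 of 34 had a relaxed summit (94.1%, interval 80.3 to 99.3), against 54.7% of all protein-coding genes. Among genes with a relaxed summit the IDR share was 17 of 32 here and 54.4% over all genes, close to that background. Intervals cover counting error only, and no test was made over the list. When 1 replicate was set aside and only peaks supported by both others were kept, the count was 11 with replicate 1 set aside (23.8% of all protein-coding genes), 11 with replicate 2 set aside (24.2%) and 8 with replicate 3 set aside (23.9%). The 8 of 34 is close to its background. Those peaks are a subset of the same list, so the count could only become smaller.

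Most of the peaks were in the weaker part of the IDR list. Signal at the 20 peaks ran from 84.7 to 225 with a median of 110, against a median of 137 over all 6410 IDR peaks. Only 4 of the 20 were above that median, and 0 were in the strongest 10% of the list. A signal below 100 was found at 8 of the 20 peaks and at 21.0% of all IDR peaks. The weakest peaks inside the list were at exp (84.7), at Idgf1 and Idgf2 (85.8) and at Cda5 (88.8). Just outside it were regions at y (74.3), serp (70.2) and Cht10 (70.2).

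**Figure D1:**
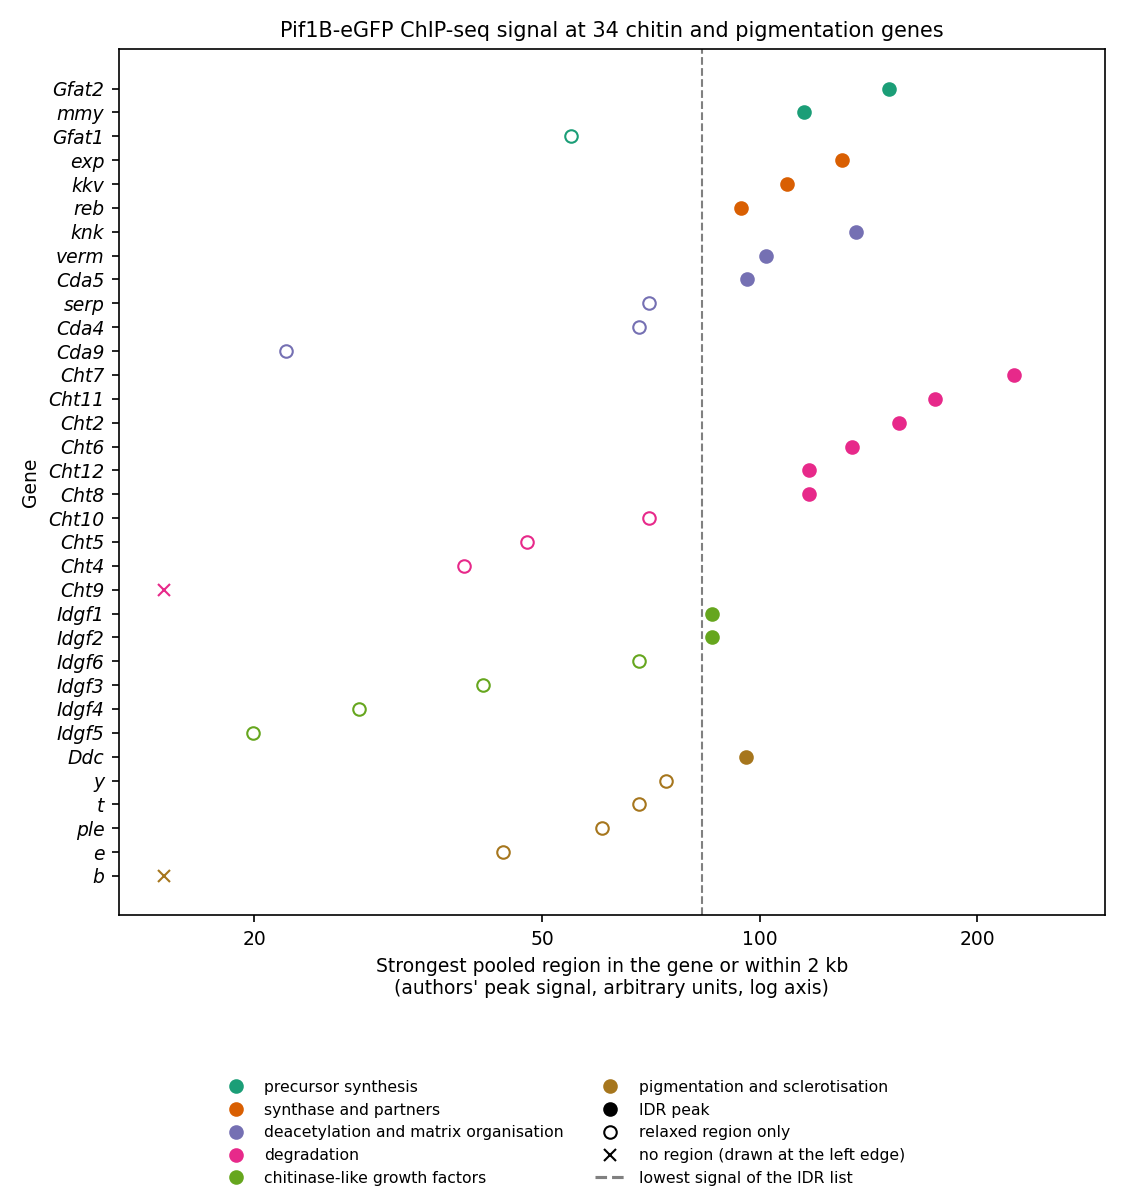
Strongest pooled region in the gene or within 2 kb for each of the 34 genes, ordered by role (horizontal axis, authors' peak signal in arbitrary units on a log scale; filled points are IDR peaks, open points relaxed regions and crosses genes with no region). The 17 filled points lie between 85.8 and 225, to the right of the dashed line at 83.2, and 5 of the 6 pigmentation genes lie to its left.

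Gene starts were the usual place of these peaks. In 14 of 20 peaks the summit was at most 500 bp from a start of any gene, against 37.2% of all IDR peaks. The 20 peaks were taken by nearness to a gene, which leaves out distal intergenic peaks, so these shares are not of like sets. At 9 of the 14 a start of a gene of the set lay within 500 bp. Of the other summits, 5 were in introns away from starts and 1 was between genes. No summit lay in coding sequence or an untranslated region away from a start. Counted by gene, 9 of 34 carried an IDR summit at one of their own starts, no more than 500 bp away (26.5%, interval 12.9 to 44.4), against 15.6% of all protein-coding genes. For relaxed summits this count was 26 of 34 (76.5%, interval 58.8 to 89.3), against 33.5% of all protein-coding genes. The nearest protein-coding start belonged to a gene of the set at 14 peaks and to a neighbour at the other 6. Those 6 peaks were the ones of Cht11, Gfat2, Cda5 (a pair), Idgf1 with Idgf2, and the intronic peak of exp. Peaks near a neighbour's start cannot be assigned to either gene by position alone.

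**Figure D2:**
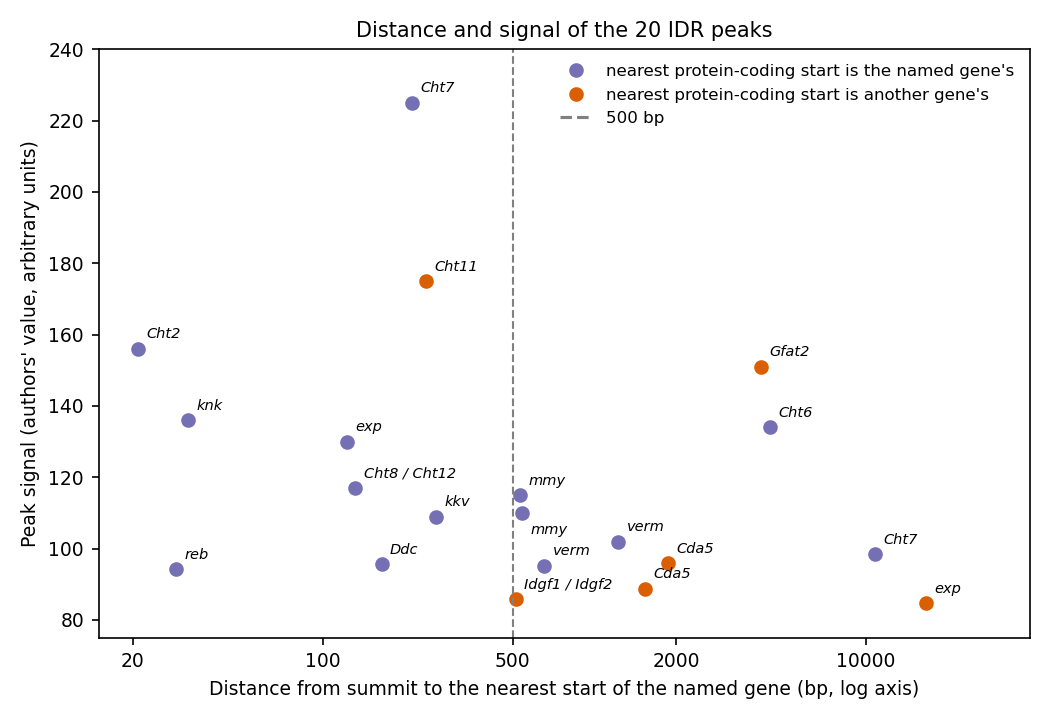
Distance from each of the 20 IDR summits to the nearest start of the gene it was counted for (horizontal axis, bp, log scale) and the authors' peak signal (vertical axis, arbitrary units). The 9 peaks within 500 bp (dashed line) include Cht7 at 225 and Cht11 at 175, and orange points mark the 6 peaks whose nearest protein-coding start is another gene's.

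Of the 3 genes of precursor synthesis, mmy and Gfat2 had IDR peaks in or within 2 kb (2 of 3), against 29.8% of all protein-coding genes. mmy encodes UDP-N-acetylglucosamine pyrophosphorylase, which makes the activated sugar that the synthase uses. It held a pair of intronic peaks, a signal of 115 with the summit 533 bp from the nearest mmy start (chr2L:6473156-6473585) and one of 110 at 544 bp (chr2L:6472401-6472830). The first ranked 5170, 6135 and 3142 in the lists of replicates 1, 2 and 3, and the second 10740, 2035 and 3137. Replicate 1 thus placed the second peak well below the others.

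Gfat1 and Gfat2 encode glutamine:fructose-6-phosphate aminotransferases, which catalyse the first and rate-limiting step of the hexosamine pathway. The Gfat2 peak had a signal of 151 (chr3R:28335451-28335880), but it lay 1353 bp beyond the 3′ end of Gfat2 and 125 bp from a start of larp, inside that gene. larp encodes a La-related RNA-binding protein. The peak ranked 7074, 1289 and 4530. At Gfat1 the strongest region was relaxed, at 54.8, with its summit 40 bp from an internal start, and the best region of the gene ranked 14494, 5910 and 10863. Only replicate 2 therefore placed Gfat1 among its 6410 strongest regions.

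All 3 genes of the synthase step had an IDR peak within 500 bp of their start, against 15.6% of all protein-coding genes. They are 8457 to 27879 bp long. Among all genes of 4999 bp or more, 53.8% had an IDR summit in or within 2 kb. That is a wider measure than a summit at a start, which was not counted by gene length. kkv (krotzkopf verkehrt) encodes the chitin synthase of cuticle and trachea. Its peak had a signal of 109 with the summit 261 bp upstream (chr3R:5392912-5393341), in the AT-rich sequence printed above, which was 19.8% G or C. The kkv peak ranked 3860, 8689 and 3757, so in replicate 2 it was outside the strongest 6410. reb and exp encode related proteins that the synthase needs to deposit chitin, and they are neighbours on chromosome arm 2R.

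The exp peak had a signal of 130 with the summit 123 bp upstream (chr2R:11939219-11939648), and ranked 4506, 2820 and 5378. A second exp peak of 84.7 lay 16.6 kb downstream of the start in an intron (chr2R:11955941-11956370) and ranked 6346, 6414 and 10394. The reb peak had a signal of 94.2 with the summit 29 bp upstream (chr2R:11912593-11913022), and ranked 9725, 3709 and 6291. The start peak of exp was thus within the strongest 6410 of every replicate, and the other exp peak and the reb peak were not.

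Among the 6 genes of deacetylation and matrix organisation, knk, verm and Cda5 had IDR peaks (3 of 6), against 29.8% of all protein-coding genes. knk (knickkopf) encodes a protein that orders newly made chitin and protects it from chitinases. Its peak of 136 had the summit 32 bp inside the gene (chr3R:10125417-10125846). It ranked 3744, 3437 and 4109, the narrowest range of ranks among the 20 peaks. serp and verm encode secreted chitin deacetylases that limit the length of tracheal tubes, and lie 5.72 kb apart on arm 3L.

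verm held a peak of 102 located 1224 bp upstream, between the pair of genes (chr3L:19696269-19696698), and one of 95.2 in an intron 654 bp from the start (chr3L:19694391-19694820). The first ranked 10539, 4399 and 4884, and the second 6623, 3833 and 10696, so neither was among the strongest 6410 of every replicate. serp had no IDR peak, and its strongest relaxed region, at 70.2, lay 1029 bp outside the gene, beyond its 3′ end. Its best regions ranked 9780, 5450 and 7113.

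The other members of this group are deacetylases of the Cda series. Cda5 had overlapping IDR peaks of 96.0 and 88.8 (chr2L:67052-67481 and chr2L:66728-67157). They lay 1863 and 1539 bp upstream of Cda5 but 224 and 100 bp from a start of dbr. In each replicate both matched the same region, at rank 4880, 8281 and 2619, so they mark 1 place. Cda4 and Cda9 had relaxed regions only, of 68.1 and 22.1. The Cda4 region lay in an intron 797 bp from the start, and none of the replicates had a region at Cda9.

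Genes of the chitinase family held the 3 strongest peaks of the set. Of 10 Cht genes, 6 had an IDR summit in or within 2 kb, against 29.8% of all protein-coding genes. The peak upstream of Cht7 had the highest signal of the whole set, 225, at rank 1451 of the IDR list (chr3L:3106957-3107386, summit 214 bp from the start, 20.8% G or C). It ranked 4475, 834 and 1195, so replicate 1 placed it lower than the others but within its strongest 6410. A second Cht7 peak of 98.5 (chr3L:3095991-3096420) lay inside the gene, 10.8 kb from the start of Cht7 and 163 bp from that of a cysteine tRNA gene.

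The Cht11 peak, at 175, lay between a pair of genes (chrX:6849542-6849971), with the summit 240 bp upstream of Cht11 and 13 bp from a start of CG4558. It ranked 4153, 2014 and 1981. Cht2 had a peak of 156 with the summit 21 bp from one of its starts (chr3L:1755474-1755903), and it was the least even in the set, at 1196, 13374 and 3073. In replicate 2 the Cht2 peak was therefore far outside the strongest 6410. Cht6 held an intronic peak of 134 located 4.45 kb from its nearest start (chrX:10021769-10022198), which ranked 2618, 5566 and 3570 and so was among the strongest 6410 in all 3 replicates.

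Cht8, Cht12, Cht4 and Cht9 form a cluster on arm 2R. One peak of 117 was counted for Cht8 and Cht12, whose spans overlap by 35 bp (chr2R:21061299-21061728). The summit was 132 bp upstream of Cht8, inside mRpL54, which encodes a mitochondrial ribosomal protein, and 1664 bp beyond the 3′ end of Cht12. It ranked 3468, 5916 and 4654. At Cht4 the strongest region was 39.0 and nearer to a start of Cht12, and Cht9 had no pooled region. Cht5 and Cht10, whose relatives in other insects are the main chitinases of moulting, had relaxed regions at their starts, of 47.6 at 49 bp and of 70.2 at 87 bp. The best regions of these genes ranked 12433, 15247 and 12388 for Cht5 and 8299, 14047 and 11207 for Cht10, outside the strongest 6410 in every replicate.

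The 6 Idgf genes encode imaginal disc growth factors, secreted proteins that resemble chitinases but lack their activity. Idgf1, Idgf2 and Idgf3 lie side by side on arm 2L, with gaps of 536 and 398 bp. Idgf1 and Idgf2 shared 1 weak peak of 85.8 (chr2L:16448297-16448726), which lay inside Idgf2, 1719 bp beyond the end of Idgf1 and 43 bp from a start of CG5888. It ranked 6498, 6680 and 10210, and so was outside the strongest 6410 of every replicate although it passed the IDR threshold on pooled reads. The strongest relaxed regions were 68.0 at Idgf6, 41.5 at Idgf3, 27.9 at Idgf4 and 19.9 at Idgf5. None of the 6 had a region among the strongest 6410 of any replicate.

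Of the 6 pigmentation genes, Ddc was the one with an IDR peak (1 of 6), against 29.8% of all protein-coding genes. Ddc encodes dopa decarboxylase, which turns dopa into dopamine. Its peak of 95.6 had the summit 165 bp upstream (chr2L:19120256-19120685). It ranked 3575 in replicate 1, 15252 in replicate 2 and 7952 in replicate 3, so replicate 1 alone placed it among its strongest 6410. ple encodes tyrosine hydroxylase, the enzyme before Ddc in the pathway, and had a relaxed region of 60.5 with the summit 106 bp upstream. The best ple region ranked 7600, 15717 and 11062. In both genes the region lay at the start, and replicate 2 gave the lowest place.

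e (ebony) joins dopamine to beta-alanine, and t (tan) reverses that step. At e the strongest region was 44.2, with the summit 246 bp upstream, and its best regions ranked 11669, 19819 and 28933. At t it was 68.0, in an intron 2607 bp from the start, and the best regions ranked 14310, 12135 and 7165. Neither gene had a region among the strongest 6410 in any replicate. b (black), which supplies the beta-alanine, had no region in the pooled list or in any of the 3 replicate lists.

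y (yellow) encodes a secreted protein needed for black melanin. Its strongest region of 74.3 was the highest of those below the IDR threshold. It lay 413 bp beyond the 3′ end of the gene, in an intron of CG32816, and 741 bp from lncRNA:yar. The best regions near y ranked 5932, 6156 and 8248, so replicates 1 and 2 placed y among their strongest 6410 although the pooled list did not.

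Support for the peaks differed between replicates. All 3 replicates supported 7 of the 20 peaks by an overlap of at least 1 bp with their 6410 strongest regions, against 65.6% of all IDR peaks. A further 9 peaks were supported by 2 replicates, 3 by 1 and 1 by none. The 7 were the start peaks of Cht7, Cht11, knk, exp and Cht8, the intronic peak of Cht6 and the stronger mmy peak. By replicate, 14, 12 and 16 of the 20 were supported in replicates 1, 2 and 3, a mean of 70% ± 10 here and of 84.4% ± 2.32 over all IDR peaks (SD, n = 3).

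Signal moved with this support. Of the peaks at 100 or more, 7 of 12 were supported by all 3 replicates here and 79.7% over the whole list. Below 100 these values were 0 of 8 and 12.6%. The part of signal in the support was not tested. With the whole relaxed lists, all 20 peaks were supported by 3 of 3 replicates. Since the IDR list was made from these replicates, support is in part built in.

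**Figure D3:**
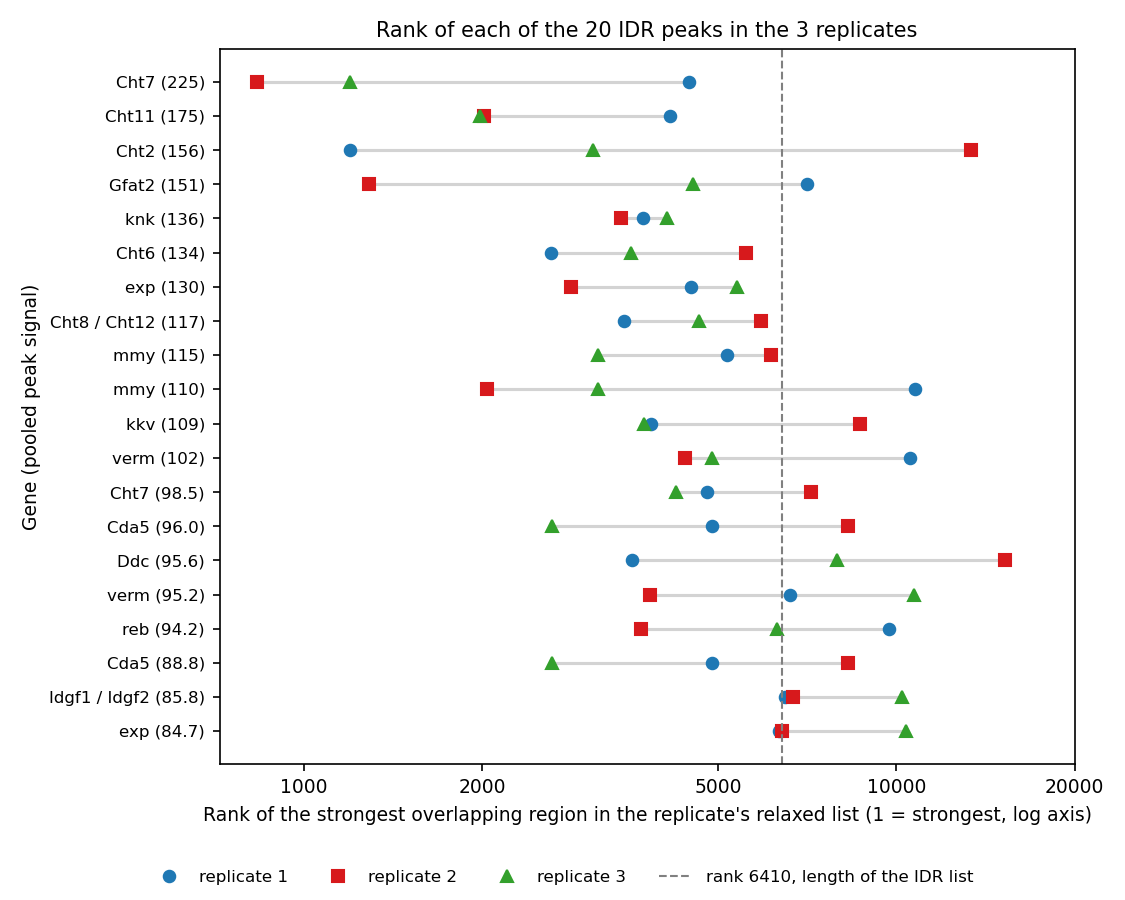
Rank of the strongest overlapping region in each replicate's relaxed list (horizontal axis, log scale, 1 is strongest) for the 20 IDR peaks, ordered by pooled signal in brackets. In 7 rows all 3 points lie left of the dashed line at rank 6410, and Cht2 runs from 1196 in replicate 1 to 13374 in replicate 2.

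The same number of genes was found in each replicate alone, but not the same genes. Among the 6410 strongest regions of replicates 1, 2 and 3, a summit was in or within 2 kb of 14, 14 and 14 of the 34 genes (41.2% each), against 31.0%, 34.1% and 30.6% of all protein-coding genes. All 3 replicates shared 9 genes, namely Cht6, Cht7, Cht8, Cht11, Cht12, Gfat2, exp, knk and mmy. Cht8 and Cht12 share 1 IDR peak. In replicate 1 Gfat2 was counted through another region, at rank 3383, since its IDR peak ranked 7074 there. Cda5, Cht2, kkv, reb, verm and y were found in 2 replicates, Ddc, Gfat1 and serp in 1, and the other 16 in none. An IDR peak with support from all 3 replicates was near 8 of the 34 genes (23.5%, interval 10.7 to 41.2) and near 22.1% of all protein-coding genes, a share that is close to the background.

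The share of all protein-coding genes with an IDR summit was larger in the classes of longer genes. Among the 34 genes the counts per class were small and the intervals wide, so they do not show whether the share changed with length. The 34 genes had a median length of 4056 bp, against 2166 bp over all protein-coding genes, and none was shorter than 1180 bp, as 3491 genes were. Among genes of 4999 bp or more, 8 of 15 had an IDR summit (interval 26.6 to 78.7), against 53.8% of all protein-coding genes of that length. From 2167 to 4998 bp it was 5 of 11 (interval 16.7 to 76.6), against 28.2%. From 1180 to 2166 bp it was 4 of 8 (interval 15.7 to 84.3), against 22.1%. Of the 9 shorter genes with a peak, Cht11, Gfat2, Idgf1, Idgf2 and Cht12 owed it to one nearer to the start of another gene. Per 100 kb of gene with its 2 kb flanks, there were 4.88 IDR summits here and 5.57 over all protein-coding genes, with summits counted once per gene. For relaxed summits the values were 27.5 and 22.3. The part of gene length in the counts was not tested beyond these length classes.

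**Figure D4:**
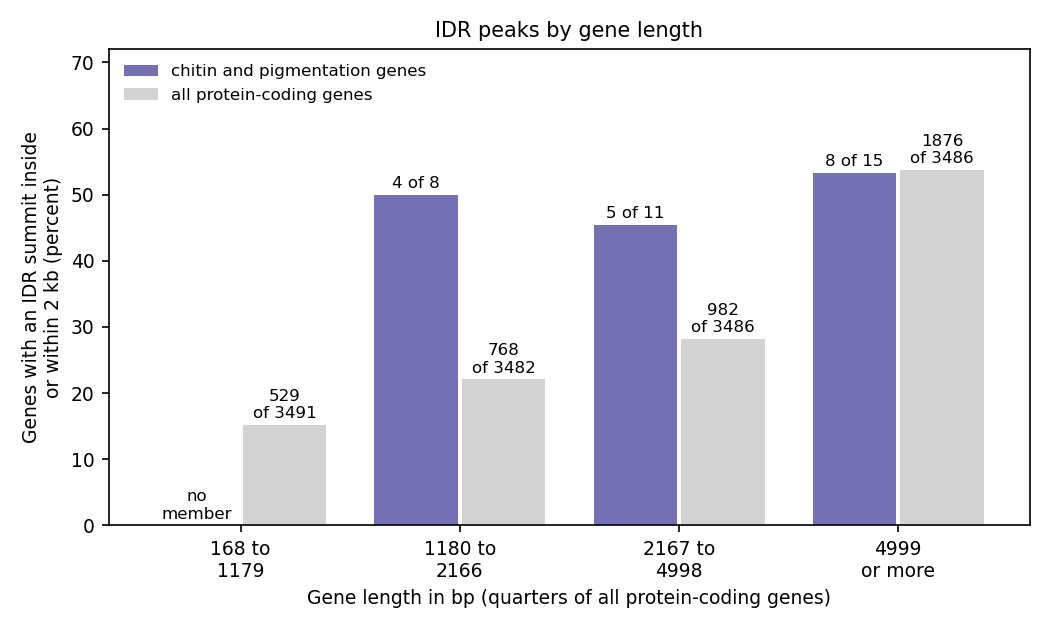
Percent of genes with an IDR summit inside or within 2 kb (vertical axis) by class of gene length (horizontal axis, bp), for the chitin and pigmentation genes (purple, left) and all protein-coding genes (grey, right), with counts above the bars. The bars are nearly equal among the longest genes, at 8 of 15 and 53.8%. The purple bars are higher in the middle classes, where they rest on only 8 and 11 genes.

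Base composition at the summits ranged widely. Within 50 bp of the summit the G or C share ran from 17.8% at the intronic exp peak to 60.4% at the shared peak of Idgf1 and Idgf2, with a median of 39.1%, against 33.7% over all IDR peaks. On both strands, 6 consensus sequences were looked for in the same windows. GAGAG, the core of GAGA factor sites, was in 6 windows (30.0%, interval 11.9 to 54.3) and in 16.5% of all IDR windows. Within 100 bp of the summits it was in 7 windows (35%) and in 30.8% of all IDR windows, so the difference was mostly lost in the wider window. The 6 narrower windows with a match were at Cht2, Cht8, Ddc, the intronic peak of exp and both of the overlapping Cda5 peaks.

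The longer consensus sequences matched rarely. TATCGATA, the DNA replication-related element, was in the Cht11 window alone, against 0.468% of all IDR windows. The match began at the summit base, in a stretch shown here with the element in capitals, since it lies 13 bp from the start of CG4558.
Cht11, chrX:6849747-6849774: atccctagttTATCGATAacaacgctat
Spelled TGANTCA, where N is any base, the AP-1 site was in the windows of Ddc and of Idgf1 with Idgf2 (10%, interval 1.23 to 31.7), against 2.36% of all IDR windows. ACCGGTT, a Grainyhead site, was in the window at Gfat2 and larp alone, on the minus strand, against 0.390% of all IDR windows. CACGTG and AGGTCA were in none of the 20 windows and in 0.640% and 2.01% of all. A count of 0 in 20 allows a share of up to 16.8%. Matches to such short words are descriptions of the sequence only.

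Other genes of the same pathways were counted in 2 further lists, also chosen with earlier results of these data known. The chitin list held 16 genes outside the set, of chitin synthesis, assembly and turnover and of general sugar metabolism. Of these, 9 had an IDR summit in or within 2 kb, against 29.8% of all protein-coding genes. A relaxed summit was found for 14, against 54.7%. The general sugar enzymes were Hex-A, Hex-C and Treh, each with an IDR summit, and Pgi, with no region. The strongest was at Gnpnat, the acetyltransferase between Gfat and mmy in the hexosamine pathway (691, 1405 bp from its start). Next were those near Hex-C, a hexokinase (671, 2582 bp), Treh, which encodes trehalase (514, 851 bp), and Hexo2, a hexosaminidase (435, 207 bp). Hex-C is 1493 bp long, so its peak lay beyond the 3′ end of the gene. Distances to starts of neighbouring genes are not given for these lists. These 4 peaks were stronger than any at the 34 genes and were supported by all 3 replicates. Only the Hexo2 peak lay within 500 bp of its gene's start.

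Pigmentation genes outside the set had few IDR peaks but many relaxed regions. Of 26, which were the yellow relatives, tyrosine and dopamine enzymes, transporters and phenoloxidases, 3 had an IDR summit, against 29.8% of all protein-coding genes, and 18 a relaxed one, against 54.7%. The 3 were speck, which encodes a dopamine N-acetyltransferase (371), PPO3, a prophenoloxidase (299, 2755 bp from its start), and Pu (120, 203 bp). Pu is the GTP cyclohydrolase that makes the cofactor of tyrosine hydroxylase. PPO3 is 2415 bp long, so its peak lay beyond the 3′ end of the gene. The yellow relatives, yellow-b to yellow-k, had no IDR summit, and their strongest relaxed region was 60.1 at yellow-d2. This list had a median gene length of 2478 bp, and the chitin list of 3634 bp.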

How the data were processed

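ChIP-seq of Pif1B-eGFP was analysed in 3 biological replicates of 1 group. The authors deposited narrowPeak lists of dm6 regions, called per replicate and on pooled replicates against the same control, per the deposited text files. The value used is the signal column as the authors' peak caller wrote it. For the aligner, caller and IDR cutoff the entry is "not given in the sources used here". The lists in the dm3 build were not used. Depth is unknown, so no interval on signal is given. No 2 replicates had identical intervals.

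Genes came from Ensembl release 115 (BDGP6, transposable elements left out) and sequence from RefSeq release 6 of the same assembly. All regions lay within its chromosome arms. Members of the set and all lists were chosen with earlier results of these data known. All 34 genes are named. Of the other lists up to 4 genes with the strongest IDR peak are named, while neighbouring genes and yellow-d2 were named after their values were seen. Skeletor and AANAT1 were matched by synonym, and Dat was not matched. There is 1 group, so no test was made. Intervals printed beside shares are 95% Clopper-Pearson intervals, and many counts of small groups are given without one. The counting, overlap and motif steps were tested on simulated data. Alternatives were other windows, overlaps, assignments, replicate subsets and a motif window of 201 bp. Analyses used scipy 1.17.1, pandas 2.3.3 and numpy 2.4.6 in Python 3.11.15, with figures drawn in matplotlib 3.10.9.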

Additional observations from a re-analysis of the deposited data

How the results depend on the processing

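The count of 17 of 34 genes with an IDR summit in or within 2 kb was 8 when only the gene itself counted (13.5% of all protein-coding genes), 11 when a summit counted only for the gene with the nearest start (19.0%), 4 among the 3205 strongest IDR peaks (20%) and 8 among peaks supported by all 3 replicates (22.1%). Leaving out 1 replicate at a time gave 8 to 11 genes (23.8% to 24.2%), and 8 of 34 and 4 of 34 are close to or below the share of all genes. Other windows gave 13 to 23 (21.8% to 42.1%), interval overlap 17 (30.5%) and each replicate alone 14 (30.6% to 34.1%). The 9 genes with an IDR summit at a start of their own became 3 among the 3205 strongest peaks (9.06% of all protein-coding genes), 5 with support from all 3 replicates (10.5%) and 5 to 7 without 1 replicate (11.5% to 11.9%). The 3 of 34 is close to its background. These subsets hold fewer peaks by construction. Of the 20 peaks, 20 were supported by all 3 replicates against the whole relaxed lists, which hold more regions, and 7 with summits within 100 bp or with 50% of the peak covered. The median signal was 117 over the strongest peak of each gene and 110 over all 20 peaks. Counts of relaxed summits were 22 to 33 (27.8% to 70.3%). In motif windows of 100 bp on each side the shares of the 20 peaks changed little, but those of all IDR peaks became larger, for GAGAG 30.8% against 35% of the 20 peaks, so the comparison in the narrower window was not kept. Depth is unknown, which limits every statement on weak regions and on genes with none.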

Other observations

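A list of transcription factor genes was chosen with earlier results of these data known. Of this list, 8 of 8 had IDR summits in or within 2 kb, against 29.8% of all protein-coding genes. The genes were grh, ovo, bab1, bab2, bi, dsx, ftz-f1 and ttk. These are long genes, with a median length of 42388 bp, and among all protein-coding genes of 4999 bp or more the share was 53.8%. That class also holds much shorter genes than these. The strongest peaks were 371 at grh, which encodes Grainyhead, a regulator of epidermal barrier genes, 311 at ovo, whose product shapes cuticular hairs, 290 at ttk and 210 at bi. All 4 were supported by all 3 replicates and lay 3131, 1496, 3592 and 22604 bp from the nearest start of the gene. A summit within 500 bp of a start was found in 5 of the 8 genes, against 15.6% of all protein-coding genes. The share at starts was not counted by gene length, so this comparison is not matched for length.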
